A study of Bos taurus with 48 samples.

Results

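Genes of B-cell survival, homing and restraint were followed in the whole blood of dairy calves around gradual weaning. The 5 genes were TNFRSF13C (ENSBTAG00000026489), CXCR5 (ENSBTAG00000046320), BACH2 (ENSBTAG00000020713), BTLA (ENSBTAG00000011871) and TNFSF13B (ENSBTAG00000045907), of 24616 genes in the deposited table. They were chosen because the study lists them as differing between the breeds on at least 1 day, so the breed differences given here are descriptions of the values that chose them and carry no test. The changes between days were not themselves used in that choice and were tested. All 5 genes were listed at d -14, however, so the d -14 levels from which the changes within a breed start had a part in it. Only the average of the breeds, weighted equally, keeps the change between days apart from the breed difference.

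Holstein-Friesian (H-F) and Jersey (J) bull calves, 8 of each breed, were housed in groups indoors and weaned gradually from milk replacer. Each calf was bled at d -14, before the reduction of milk began, and at d 1 and d 8 after it ended. All the calves had received the same vaccines on arrival. The J calves were older on arrival and came from more than one farm, and the H-F calves shared a farm of origin, so breed cannot be told apart from farm and age. The allowance of concentrate before weaning was set differently for the breeds, but the study states that H-F calves left part of theirs uneaten, which made the offer much the same. Poly(A) RNA was sequenced in 48 libraries, with 3 libraries per calf. J calf 85, which the study left out, was set aside, and 8 H-F and 7 J calves in 45 libraries remained, with 28088019 to 39095624 counts per library (median 33666332). The SD over genes of the deviations of log2 counts from the group means was 0.447 in the d 8 library of H-F calf 25. It was 0.401 in the d 1 library of J calf 9, against 0.257 to 0.368 in the others. Both are taken up with some of the results they touch, but the correlations between genes are given only with both included.

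B cells carry on their surface the receptors through which they are kept alive, guided and held back. TNFSF13B, also called BAFF, is a cytokine made largely by myeloid cells, and TNFRSF13C is the receptor through which it keeps mature B cells alive. CXCR5 is the chemokine receptor that draws B cells, and some T cells, into the follicles of lymph nodes and spleen. BTLA is an inhibitory receptor of B and T lymphocytes that binds HVEM, and BACH2 is a transcription repressor that delays the passage of B cells to plasma cells and also acts in T cells.

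The gene for the BAFF receptor had higher mean levels in J than in H-F calves on each day, and met the limits for a differentially expressed gene (DEG), which needed 1.5-fold or more with an adjusted p under 0.1, at d -14 and d 1 but not at d 8. Levels are given in CPM, the read count of a gene scaled to the normalised size of its library. In H-F calves TNFRSF13C ranged from 0.972 to 5.18 CPM (median 3.76) at d -14, from 1.21 to 6.06 (median 4.11) at d 1 and from 2.87 to 6.92 (median 4.23) at d 8. In J calves it ranged from 4.17 to 9.43 CPM (median 7.17), from 4.60 to 12.1 (median 9.21) and from 5.13 to 13.3 (median 6.23) on the same days. The breeds overlapped at every day, with 6 of 7 J libraries above the highest H-F library at d -14, 5 at d 1 and 2 at d 8. In the fit to counts, the log2 fold change of J relative to H-F on these days was 0.99, 1.00 and 0.69, each with an SE of 0.28. H-F calf 48 held the lowest values of the breed at d -14 and d 1, at 0.972 and 1.21 CPM, but not at d 8, when it stood at 3.31 CPM. The reads behind these values were few, 30 to 245 per H-F library and 136 to 457 per J library.

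CXCR5, the follicular homing receptor, was also higher in J calves, by a smaller log2 difference. In order of day, H-F libraries held 17.9 to 37.4, 22.4 to 37.8 and 22.7 to 40.6 CPM, with medians of 28.7, 28.8 and 28.4. J libraries held 27.3 to 54.9, 30.0 to 55.1 and 29.9 to 62.3 CPM, with medians of 43.0, 41.8 and 36.8. The J libraries above every H-F library numbered 6, 4 and 3 of 7, and J calf 6 lay within the H-F range on each day. Log2 fold changes were 0.64 (SE 0.17), 0.51 (SE 0.17) and 0.51 (SE 0.17), which is 1.56-fold, 1.42-fold and 1.42-fold. CXCR5 thus lay just inside the limit of 1.5-fold at d -14 and just outside it on the later days. At d -14 it failed to be a DEG where any 1 of H-F calves 32 and 33 and J calf 9 was left out, when the log2 fold change was 0.57 or 0.58.

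BACH2, the transcription repressor, showed the least overlap between the breeds over the 3 days. Its H-F libraries held 17.7 to 26.7, 15.4 to 29.0 and 7.84 to 29.7 CPM on the 3 days, and the medians were 21.4, 18.4 and 18.4. Its J libraries held 25.4 to 40.4, 26.4 to 51.2 and 27.3 to 48.8 CPM, with medians of 38.4, 37.0 and 33.9. On each day 6 of 7 J libraries lay above every H-F library, and the remaining one was J calf 6, at 25.4, 26.4 and 27.3 CPM. Its log2 fold changes were 0.74, 0.90 and 0.98, each with an SE of 0.17. The lowest value of all, 7.84 CPM, belonged to H-F calf 25 at d 8, the library that stood apart most, and without that library the difference at d 8 was 0.86 (SE 0.15).

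BTLA, the inhibitory receptor, was higher in J calves as a group, with wide differences from calf to calf. On the 3 days its H-F libraries held 10.8 to 27.6, 11.3 to 26.6 and 12.8 to 27.6 CPM, with medians of 18.7, 20.02 and 18.1. Its J libraries held 16.3 to 46.1, 15.5 to 54.3 and 19.0 to 48.7 CPM, with medians of 33.2, 28.8 and 32.98. J calf 60 had the lowest J value on each day, at 16.3, 15.5 and 19.0 CPM, inside the H-F range, and J calf 9 had the highest, at 46.1, 54.3 and 48.7 CPM. The numbers of J libraries above the highest H-F library were 5, 4 and 4 of 7. The corresponding log2 fold changes were 0.74, 0.65 and 0.81, each with an SE of 0.24, and the DEG call at d -14 was lost without J calf 57. Without the d 1 library of J calf 9 the d 1 difference was 0.44 (SE 0.24), below the limit of 1.5-fold.

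TNFSF13B, the ligand of the BAFF receptor, went the other way at d -14, where it was lower in J calves, and did not meet the limits for a DEG on the later days. Over d -14, d 1 and d 8 its H-F libraries held 0.972 to 2.30, 1.15 to 2.07 and 0.919 to 2.04 CPM, with medians of 1.55, 1.48 and 1.23. Its J libraries held 0.298 to 1.54, 1.01 to 1.24 and 0.781 to 1.51 CPM, with medians of 1.18, 1.05 and 1.26. The J libraries below the lowest H-F library numbered 3, 5 and 1 of 7, and none lay above the highest. These values rest on 30 to 73 reads in an H-F library and 9 to 52 in a J library, so that counting error adds to the spread between calves. The log2 fold changes were -0.73, -0.49 and -0.17, each with an SE of 0.22, and at d 8 the J median was not below the H-F median. The d -14 value drew on 2 J calves in particular, calf 57 at 0.298 CPM and calf 13 at 0.440 CPM, and both stood at 1.01 CPM or more at d 1 and d 8. The DEG call at d -14 was lost without J calf 57, when the log2 fold change was -0.58.

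**Figure D1:**
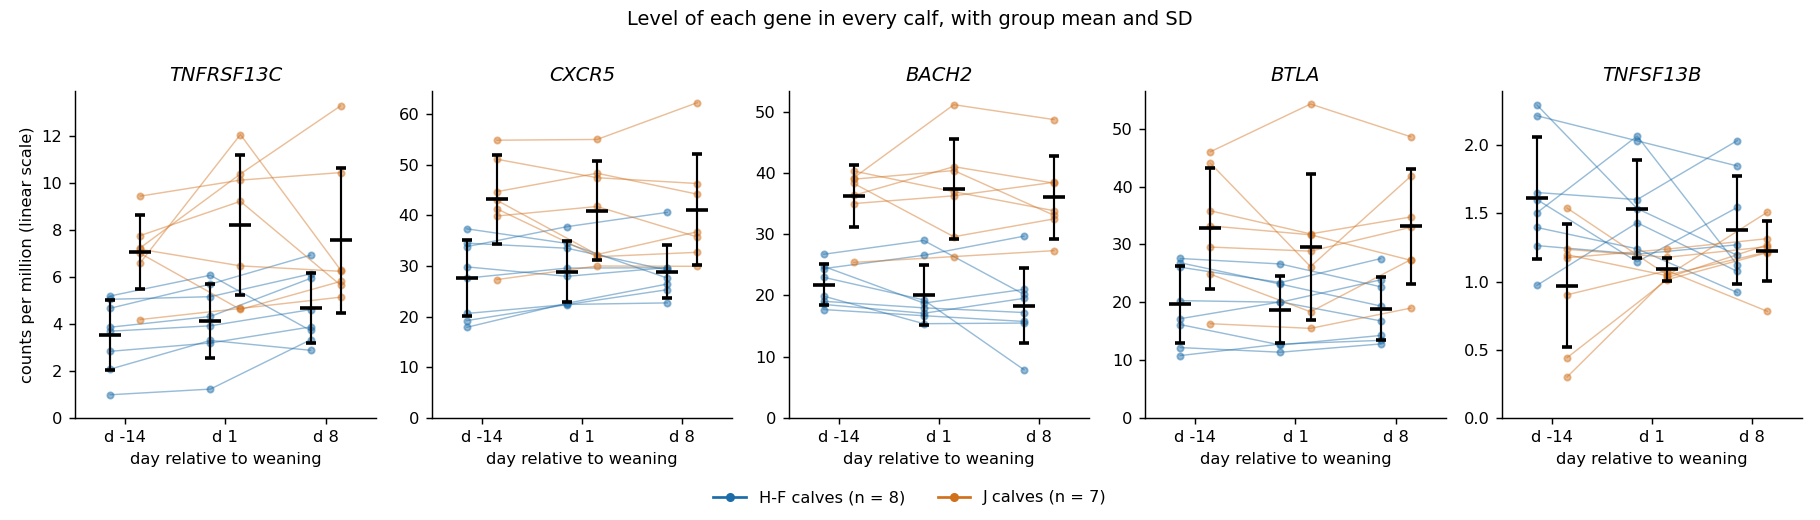
CPM of the 5 genes (vertical axes, linear, each with its own scale) by day relative to weaning (horizontal axes); points joined by a line are 1 calf, blue for the 8 H-F and orange for the 7 J calves, and black bars are group means with SD. BACH2 has 6 of 7 J calves above all H-F calves on each day, whereas TNFSF13B lies lower in J at d -14 and overlaps widely at d 8.

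Ordered by mean CPM, the 3 J groups stood above the 3 H-F groups for TNFRSF13C, CXCR5, BACH2 and BTLA, and the reverse held for TNFSF13B. The step between the lowest J group and the highest H-F group was larger than the SD of either for TNFRSF13C (7.05 ± 1.56 CPM, SD, n = 7, at d -14 in J and 4.66 ± 1.48, n = 8, at d 8 in H-F). The same was true of CXCR5 (41.0 ± 9.79 at d 1 and 28.9 ± 5.31 at d 8) and of BACH2 (36.1 ± 6.78 at d 8 and 21.8 ± 3.38 at d -14). For BTLA that step was 29.5 ± 12.7 to 19.6 ± 6.66 CPM, within the SD of the J group. In none of the 5 genes did neighbouring groups of the same breed differ by more than their SD, and for TNFSF13B no neighbouring groups did.

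By the rule for a DEG, a Benjamini-Hochberg adjusted p under 0.1 in edgeR's quasi-likelihood test and a fold change of at least 1.5, all 5 genes were called at d -14, where 4.1% of the 12677 genes tested were called. At d 1 the 3 genes TNFRSF13C, BACH2 and BTLA were called, against 3.73% of all genes, and at d 8 the 2 genes BACH2 and BTLA, against 3.13%. Since the genes were chosen from these comparisons, nothing is read from those counts. The median log2 fold change of the 5 genes was 0.74, 0.65 and 0.69 on the 3 days, and that of all genes tested was 0.01, -0.004 and -0.001. In no gene were all J libraries clear of all H-F libraries on any day, which was so, in the upward direction, for 0.497%, 0.221% and 0.339% of all genes on the 3 days, and in the downward direction for 0.671%, 0.434% and 0.505%.

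**Figure D2:**
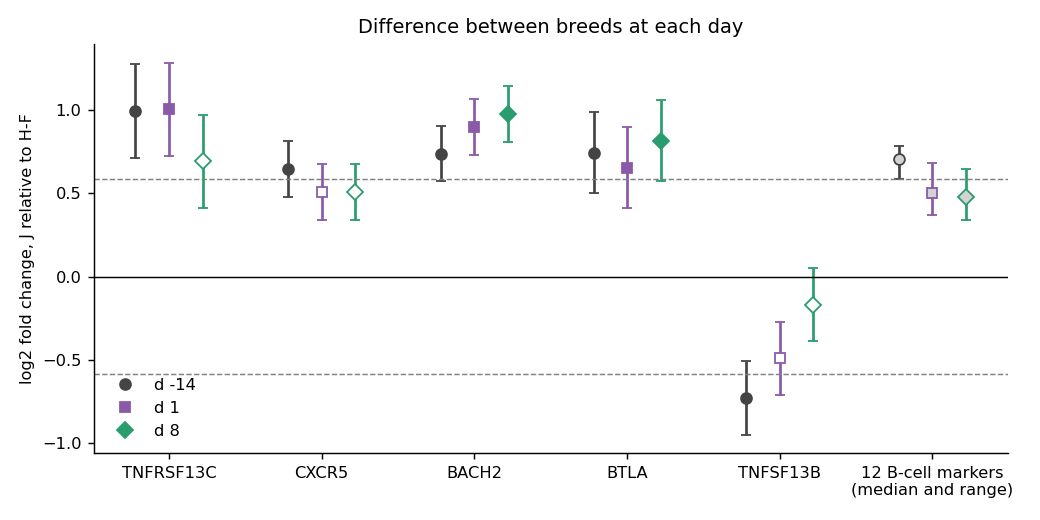
Log2 fold change of J relative to H-F (vertical axis) for each gene at d -14, d 1 and d 8, with SE bars; filled symbols met both limits for a DEG, open ones did not, and dashed lines mark 1.5-fold. The grey symbols give the median and the range of 12 B-cell markers, whose medians were 0.71, 0.50 and 0.48; they were matched through the study's DEG lists, so the size of their differences is not independent of that choice.

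J calf 85, which took no part in choosing the genes, was read on a scale set by all 48 libraries. Its TNFRSF13C, at 6.88, 8.31 and 9.76 CPM on the 3 days, lay above every H-F library and within the range of the other J calves. BACH2, at 41.8, 52.7 and 50.8 CPM, lay above every other calf of both breeds on each day. BTLA, at 36.1, 33.1 and 42.6 CPM, lay above every H-F library on each day, and CXCR5, at 43.7, 44.2 and 39.7 CPM, did so at d -14 and d 1 but not at d 8. TNFSF13B, at 0.826, 0.628 and 0.893 CPM, lay below every H-F library on each day. This is 1 calf, and no test was made of it. How many of all genes lay beyond the H-F range in this calf was not counted. The study set it aside as an outlier.

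Between days, none of the 5 genes was called in either breed or in their average. In that average, edgeR's quasi-likelihood test gave 0 calls among the 5 genes for d 1, d 8 and d 8 against d 1, where 0.00789%, 0.245% and 0.0% of all genes were called, and 0 of the 5 had an unadjusted p under 0.05 in any of these comparisons. Within H-F calves the shares of all genes called were 0.0%, 0.071% and 0.0%, and within J calves 0.0% for each pair of days, again with 0 of the 5 genes. DESeq2, limma-voom and, within breeds, the exact test of edgeR also called 0 of them. The same calf was bled on each day, and a fit with calf as a block gave narrower intervals. It called 0 of the 5 genes too, where the shares of all genes called at d 1, d 8 and d 8 against d 1 were 0.197%, 0.607% and 0.0% in the average. They were 0.252%, 1.08% and 0.0% for H-F calves, and for J calves 0.0552%, 0.205% and 0.0%. In the average, the blocked fit gave TNFRSF13C a d 8 change of 0.26 on the log2 scale relative to d -14. Its 95% interval, 0.02 to 0.50, left out 0, and the adjusted p was 0.180 in edgeR's quasi-likelihood test.

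In that fit the largest change belonged to the BAFF receptor in H-F calves. TNFRSF13C was higher at d 8 than at d -14 by 0.47 on the log2 scale (SE 0.17, 95% interval 0.13 to 0.81), with 7 of 8 calves higher and a Benjamini-Hochberg adjusted p of 0.0782 in edgeR's quasi-likelihood test. That change was past the false discovery rate of 10% but under 1.5-fold, so it was not a DEG, and without the block the adjusted p was 0.595. With the block but without the d 8 library of H-F calf 25 the change was 0.48 and the adjusted p 0.130, no longer past that rate. This fit, like the other blocked fits that leave out a library, was chosen after seeing the data. The largest rise was that of H-F calf 48, from 0.972 CPM (30 reads) at d -14 to 3.31 CPM at d 8. No blocked fit was made without this calf. Over all alternatives the H-F change from d -14 to d 8 lay between 0.32 and 0.54. At d 1 all 8 H-F calves were above their own d -14 value, by 0.22 on the log2 scale (SE 0.17, adjusted p = 0.594 in the same edgeR fit). In J calves the d 8 change was 0.06 (95% interval -0.28 to 0.39), with 3 of 7 calves higher. The difference of the d 8 changes, J minus H-F, was -0.41 on the log2 scale (95% interval -0.89 to 0.07), which is a description only, because the d -14 breed difference that enters it was used to choose the gene. The d -14 levels from which the changes within each breed start had a part in that choice too.

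BACH2 in H-F calves had a lower level at d 8 than at d -14, by a log2 value of -0.28 (95% interval -0.51 to -0.05), in 6 of 8 calves, and was not called (adjusted p = 0.121 in edgeR's quasi-likelihood test). Without the d 8 library of H-F calf 25 the value was -0.14 (95% interval -0.31 to 0.02). In J calves its change was -0.02 (95% interval -0.25 to 0.22). CXCR5 was the steadiest gene. Its 95% intervals in the blocked fit lay between -0.24 and 0.24 in both breeds at d 1 and d 8 relative to d -14. BTLA at d 1 was lower than at d -14 in 6 of 8 H-F calves and 6 of 7 J calves, by log2 values of -0.06 (95% interval -0.24 to 0.12) and -0.18 (95% interval -0.37 to 0.01), and neither was called. From d 1 to d 8 its value in J calves was 0.20 (95% interval 0.01 to 0.39), in the upward direction in 5 of 7 calves, and it was not called either (adjusted p = 0.9998 in edgeR's quasi-likelihood test). Without the d 1 library of J calf 9 the J values were -0.25 (95% interval -0.44 to -0.06) from d -14 to d 1 and 0.28 (95% interval 0.09 to 0.47) from d 1 to d 8, and neither was called.

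TNFSF13B had opposite signs in the breeds. From d -14 to d 8 its blocked log2 change was -0.23 (95% interval -0.58 to 0.12) in H-F and 0.36 (95% interval -0.05 to 0.76) in J calves. The difference of these changes, J minus H-F, was 0.59 (95% interval 0.05 to 1.12). Without the d 8 library of H-F calf 25 it was 0.52 (95% interval -0.02 to 1.07). It is a description for the same reason as in TNFRSF13C.

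**Figure D3:**
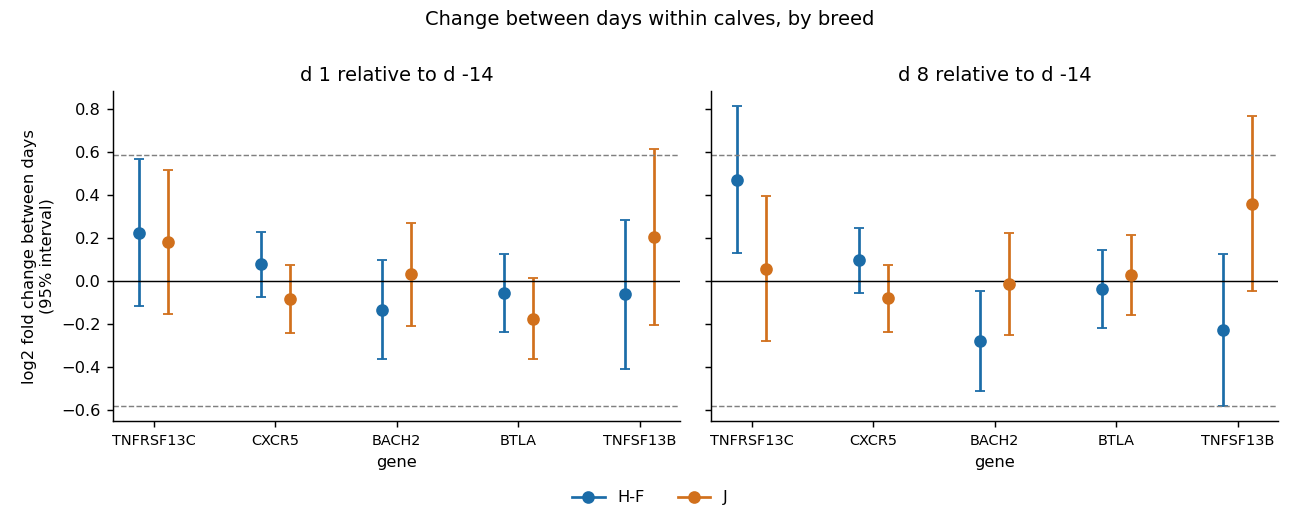
Log2 fold change (vertical axis) of each gene at d 1 (left) and d 8 (right) relative to d -14, from the fit with calf as a block, blue for H-F and orange for J; bars are 95% intervals and dashed lines mark 1.5-fold. Among the changes shown, those of TNFRSF13C (0.47) and BACH2 (-0.28) in H-F at d 8 have intervals that leave out 0.

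Differences between calves made up most of the spread of the receptor genes, and differences within a calf most of that of the ligand. After removal of the group means, 86.3% of the variance of log2 CPM lay between calves for BTLA, 79.3% for CXCR5 and 66.5% for TNFRSF13C, against 45.6% for BACH2 and 20.02% for TNFSF13B. The median over all genes tested was 42.6%, and BTLA stood at the 96.7th percentile and TNFSF13B at the 16.3rd. TNFSF13B rests on 30 to 73 reads in an H-F library and 9 to 52 in a J library. Counting error is therefore part of its spread within a calf, and its size was not separated. In J calves the share for TNFSF13B was 7.84%, with a within-calf SD of 0.48 on the log2 scale. For BACH2 it was 35.1% in H-F and 70.9% in J calves, and without H-F calf 25, whose d 8 library held 7.84 CPM, it was 71.1% in the other 7 H-F calves.

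The same few calves stood at the ends for several genes. Over the mean of the 3 days, H-F calf 56 was the highest of its breed for TNFRSF13C (5.75 CPM), CXCR5 (37.4 CPM), BACH2 (26.9 CPM) and BTLA (25.7 CPM). J calf 9 was the highest J calf for the same 4 genes, at 10.3, 57.4, 46.4 and 49.7 CPM. J calf 6 was the lowest J calf for TNFRSF13C (4.65 CPM), CXCR5 (29.1 CPM) and BACH2 (26.4 CPM). The highest calf exceeded the lowest of its breed by 3.14-fold in H-F and 2.21-fold in J for TNFRSF13C, and by 2.13-fold and 2.94-fold for BTLA. The calf at the top for TNFSF13B was another one in each breed, H-F calf 32 at 2.03 CPM and J calf 77 at 1.27 CPM.

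Over the 15 calf means of log2 CPM, with the breed mean removed, Pearson's r was 0.85 between TNFRSF13C and CXCR5, 0.81 between CXCR5 and BTLA, 0.68 between CXCR5 and BACH2 and 0.58 between TNFRSF13C and BACH2. BTLA had an r of 0.49 with TNFRSF13C and 0.42 with BACH2. The correlations of TNFSF13B with the other 4 genes lay between -0.31 and -0.14. These points share their libraries and the make-up of the blood, and the values are a description. Within H-F calves alone (n = 8) the r of TNFRSF13C with CXCR5 was 0.88, and within J calves (n = 7) it was also 0.88. Not every pair was so alike in the breeds. The r of TNFSF13B with BTLA was -0.61 in H-F and 0.16 in J calves, and with TNFRSF13C 0.04 and -0.48.

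Known genes of B cells were set beside them. Of a list of 23 B-cell markers, 12 could be matched, and all 12 through the study's own lists of DEG. Their differences between breeds are therefore not independent evidence of direction. A marker absent from those lists could not be matched, so markers without a breed difference are largely missing here. The 12 include CD79B, a part of the B-cell receptor complex, and MS4A1, which encodes CD20. All 12 had positive log2 fold changes on each day, with medians of 0.71, 0.50 and 0.48. Of them 11 were called at d -14, 3 at d 1 and 1 at d 8, against 4.1%, 3.73% and 3.13% of all genes. Since the 12 came from the lists of DEG, nothing is read from those counts. HVCN1, a proton channel of B cells, was called on all 3 days, with log2 fold changes of 0.78, 0.61 and 0.65. CIITA (0.63, 0.66 and 0.50), the regulator of MHC class II genes, was called at d -14 and d 1. EBF1, a transcription factor of the B lineage, had 0.69, 0.55 and 0.52 and was called at d -14. MS4A1 had 0.68, 0.38 and 0.34 and CD79B had 0.78, 0.46 and 0.39, each called at d -14 alone.

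The summed level of the 12 markers was 814 to 1630 CPM (median 1298) in H-F and 1364 to 2296 (median 2031) in J libraries at d -14. At d 8 it was 1245 to 1714 (median 1486) in H-F and 1469 to 2813 (median 2052) in J libraries. None of the 12 was at 0 in any group. In whole blood, fewer cells of a type and less RNA per cell cannot be told apart, and the part of the B-cell markers in the differences of TNFRSF13C, CXCR5, BACH2 and BTLA was not tested.

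CXCR5 moved most closely with these markers. Its r over the 15 calves was 0.98 with HVCN1, 0.90 with CD79B and 0.86 with MS4A1, and its median r with the 12 markers was 0.86. The medians were 0.76 for TNFRSF13C, 0.62 for BTLA, 0.53 for BACH2 and -0.28 for TNFSF13B. BTLA had an r of 0.80 with HVCN1 and 0.00 with SPIB, a transcription factor of B cells. Of the 12 markers, 11 had an r above the 95th percentile of all genes with TNFRSF13C, 9 with CXCR5, 9 with BACH2, 6 with BTLA and 0 with TNFSF13B.

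**Figure D4:**
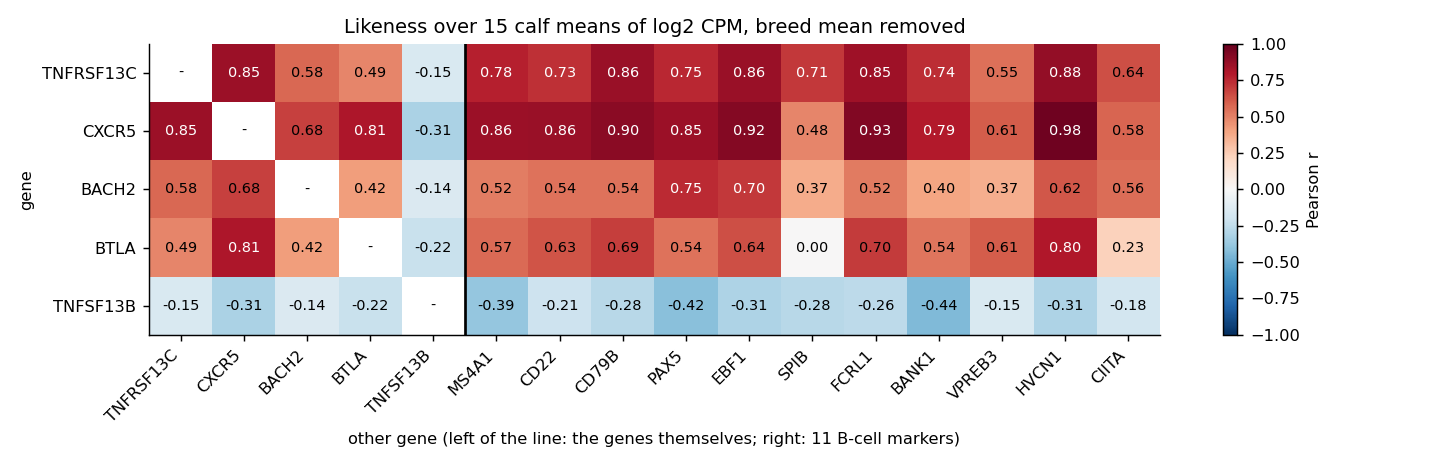
Pearson r (colour and number) over 15 calf means of log2 CPM with the breed mean removed, for each of the 5 genes (vertical axis) against the other 4 and 11 of the 12 B-cell markers (horizontal axis). CXCR5 reaches 0.98 with HVCN1, and TNFSF13B is negative with every gene shown.

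Taken relative to the mean log2 CPM of the 12 markers in the same library, the genes parted. The markers were matched through DEG lists, in which 11 were called here at d -14 and 1 at d 8, so what remains after subtraction is not independent of that choice. For CXCR5 the breed difference that remained on the 3 days was -0.07, 0.01 and 0.04 on the log2 scale. For BACH2 it was 0.005, 0.42 and 0.59, as the H-F mean went from -1.51 ± 0.31 (SD, n = 8) to -2.12 ± 0.54 and the J mean from -1.50 ± 0.15 (SD, n = 7) to -1.53 ± 0.19. The d 8 library of H-F calf 25 holds the lowest of these values, and without it the H-F mean at d 8 was -1.94 ± 0.17 (n = 7) and the difference 0.41. BTLA had 0.02, 0.13 and 0.36, and TNFRSF13C had 0.38, 0.55 and 0.22. H-F calf 48 held the lowest H-F values of TNFRSF13C at d -14 and d 1, -5.27 and -5.654. The other H-F calves ranged from -4.235 to -3.957 and from -4.213 to -3.752 on these days. The differences without calf 48 were not computed. TNFSF13B had -1.55, -0.93 and -0.58. For this gene, made largely by myeloid cells, these values take in the difference of the markers beside its own. Its own differences of log2 CPM were -0.82, -0.44 and -0.14. The mean of the markers itself differed between breeds by 0.73, 0.48 and 0.44, with an H-F mean that went from 5.94 ± 0.46 at d -14 to 6.24 ± 0.20 at d 8 and a J mean of 6.67 ± 0.24 and 6.69 ± 0.28.

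**Figure D5:**
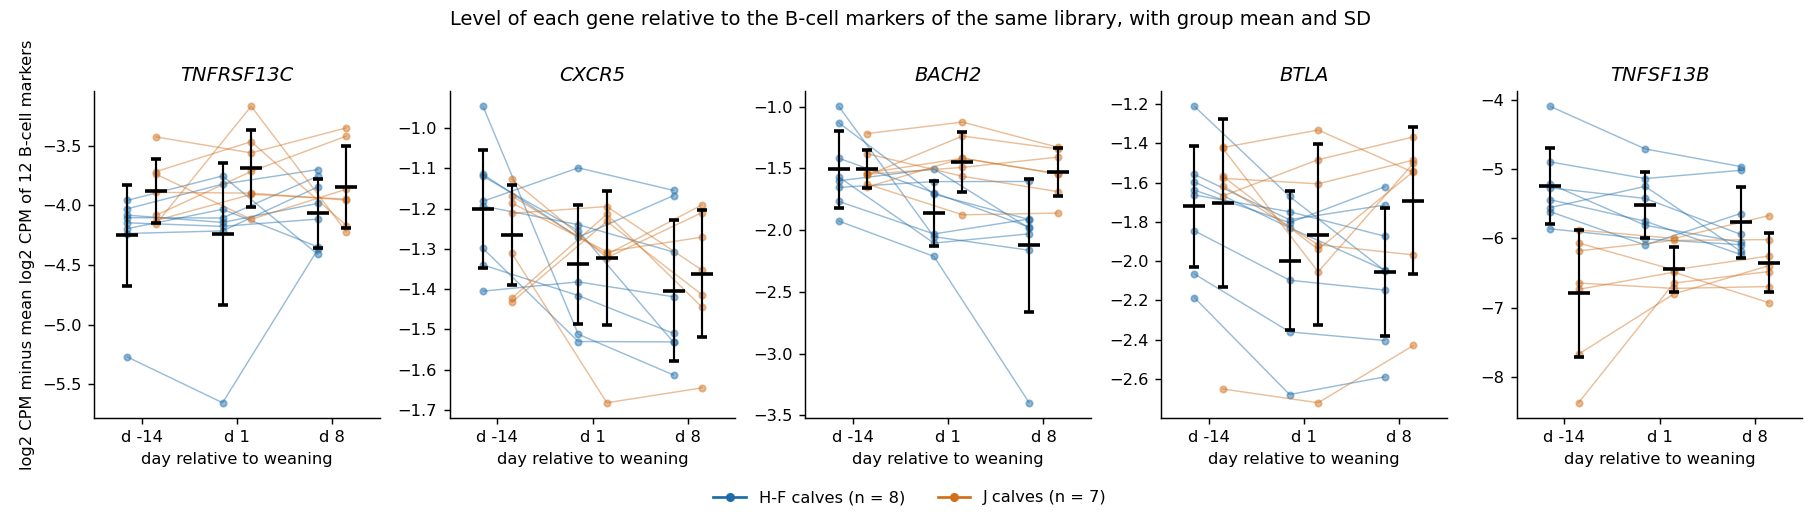
Log2 CPM of each gene minus the mean log2 CPM of 12 B-cell markers in the same library (vertical axes, each with its own scale) by day relative to weaning; points joined by a line are 1 calf, blue for H-F and orange for J, and black bars are group means with SD. CXCR5 has like means in the breeds on each day, while the H-F mean of BACH2 goes from -1.51 at d -14 to -2.12 at d 8, or to -1.94 without the d 8 library of calf 25.

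The genes whose calf means were most like each of the 5 were taken from the whole table. For CXCR5 these were HVCN1 (r = 0.98), TCTN1 (r = 0.97), PIK3C2B (r = 0.96) and 2 genes without a symbol here (r = 0.95 for each). For BTLA they were FNDC4, EHD3 and CLGN, with an r of 0.91, 0.91 and 0.90, and 2 genes without a symbol. For TNFRSF13C they were FAM124A (r = 0.92), FZD5 (r = 0.90) and 3 genes without a symbol, of which the first had the highest r of all, 0.93. For TNFSF13B they were FAM26F (r = 0.89), PWWP2B (r = 0.86) and 3 genes without a symbol. The 5 nearest to BACH2, with an r of 0.80 to 0.86, had no symbol. Symbols were known for 698 genes, those of the study's DEG lists, so the named genes are not a fair sample of the table.

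Genes of other blood cells differed between the breeds on the same days, and were again matched through the study's DEG lists. Nothing is therefore read from their counts called beside the 4.1%, 3.73% and 3.13% of all genes. Of 12 markers of NK and cytotoxic cells 6 were matched, all lower in J on each day, and 5, 3 and 4 of them were called. GZMA, a granzyme, had log2 fold changes of -0.70, -0.92 and -0.64 and was called on all 3 days. GZMM (-0.65, -0.70 and -0.76) was called on all 3 days, and KLRB1 (-0.73, -0.54 and -0.71) and NCR1 (-0.66, -0.46 and -0.74), receptors of NK cells, at d -14 and d 8. The 5 platelet genes matched of 8 were lower in J, and 2, 4 and 4 were called. PF4, a platelet chemokine, was at -0.82, -1.26 and -1.47 and was called on each day. GP6, at -0.51, -0.92 and -0.93, was called at d 1 and d 8. GP9, at -1.09, -1.01 and -1.25, was called at d 8 alone. Of the myeloid genes, IL1R2 (-1.30, -0.97 and -1.93) and MSR1 (-1.20, -1.24 and -1.38) were called on each day and AQP9 (-0.90, -0.91 and -0.58) at d -14 and d 1, while CXCR2 was not called. CD38, found on plasma cells and other lymphocytes, was higher in J by 0.86, 0.72 and 0.81 and called on each day. Their part in the level of the 5 genes was not tested.

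The partner genes of the 5 could hardly be followed. None of 14 genes of the BAFF and APRIL axis and none of 12 of follicular homing was matched to a symbol. CD22, an inhibitory receptor of B cells, was the 1 match of 12 in the list of BTLA and HVEM and was called at d -14, with log2 fold changes of 0.59, 0.47 and 0.39. PAX5, which keeps the B-cell identity, was the 1 match of 13 in the BACH2 list and was called at d -14, with 0.66, 0.38 and 0.52. Of 18 genes of B-cell receptor signalling 2 were matched, among them CD79B, given above. None of 20 T-cell markers and none of 8 erythroid markers was matched.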

How the data were processed

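Whole blood of 8 H-F and 8 J calves was sequenced at d -14, d 1 and d 8. Per the labels and the study's methods, the authors aligned paired end reads to UMD3.1 with STAR, kept unique alignments with few mismatches and counted reads per Ensembl gene with HTSeq in union mode, and read quality was checked with FastQC 0.10.0. The deposited values are whole-number counts without normalization, for 24616 genes and 92 ERCC spike-in sequences, which were left out of library sizes and tests. The sources used here give no versions of STAR and HTSeq. Each of the 48 columns was matched to a calf and day. The library kit does not mark strand, so reads of overlapping antisense genes cannot be told apart.

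The J calf that the study left out was identified as calf 85, because the mean log2 CPM of the study's DEG lists were met with a root mean square difference of 0.000226 without it, against 0.0508 for the next calf. The 12677 genes above 1 CPM in 8 or more libraries were kept. TMM factors, a mean for each of 6 groups and the quasi-likelihood test of edgeR 4.0.16 (R 4.3.3) were used. For a DEG the p adjusted by Benjamini-Hochberg over all genes tested had to be under 0.1, with a fold change of at least 1.5. Log2 CPM used a prior count of 2, and log2 fold changes came from the fit. The biological coefficient of variation was 0.185, and 0.102 with calf as a block. The numbers in the labels pair the libraries of a calf, and the log2 deviations of 2 libraries correlated at 0.40 to 0.85 where they shared a calf, against -0.58 to 0.30 where they did not. The block was an alternative, since the study's test did not use it. Others were a random effect of calf in limma-voom (limma 3.58.1), DESeq2 1.42.0, edgeR's exact test, relative log expression (RLE) size factors, other filters and call rules, only the groups compared, all 16 calves and each calf left out in turn. The steps were tested on simulated data. Python 3.11.15, numpy 2.4.6, pandas 2.3.3 and matplotlib 3.10.9 served for summaries.

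The 5 genes and the gene lists were chosen with earlier results of these data known. Symbols came from the study's lists of DEG, 698 of 800 genes with one. Symbols that had lost a digit there were not used, and SPIB was matched by its full name. Genes named beside the 5 were up to 4 per list, those called on the most days, with MS4A1 and CD79B always given, and the 5 genes nearest to each of the 5 by Pearson's r. CD3E, CD14 and CSF3R were to be named too but were not matched, and the values of 2 further genes that the rule names are not reported here. At this depth the spread between calves limits the precision, except in TNFSF13B, where counting error adds to it.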

Additional observations from a re-analysis of the deposited data

Results flagged for a closer look

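In a set of 30 groups, each of the 5 genes in each breed and day, 4 held a library whose gap to its neighbour was large for the range of the group by Dixon's test, where chance gives about 1 in 20. CXCR5 in H-F calf 56 at d 8 was 40.6 CPM, with the next at 29.7. BACH2 in J calf 6 at d -14 was 25.4 CPM, with the next at 35.0. BTLA in J calf 9 at d 1, the J library that stood apart, was 54.3 CPM, with the next at 31.8. TNFSF13B in J calf 60 at d 8 was 0.781 CPM, with the next at 1.21.

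J calf 85, which the study set aside as an outlier, was outside the comparisons. Of its 15 values, 14 lay beyond the H-F range, below it for TNFSF13B and above it for the other genes. The share of all genes beyond that range in this calf was not counted, so nothing is read from the number of these values. For TNFRSF13C they were 6.88, 8.31 and 9.76 CPM at d -14, d 1 and d 8, where the highest H-F values on the same scale were 5.23, 6.03 and 6.95. For CXCR5 they were 43.7 and 44.2 CPM at d -14 and d 1, against 37.7 and 38.1. For BACH2 they were 41.8, 52.7 and 50.8 CPM, against 26.99, 28.9 and 29.8. For BTLA they were 36.1, 33.1 and 42.6 CPM, against 27.6, 26.8 and 27.7. For TNFSF13B they were 0.826, 0.628 and 0.893 CPM, where the lowest H-F values were 0.985, 1.14 and 0.918.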

How the results depend on the processing

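All 375 recomputed breed differences of the 5 genes kept their direction and moved by less than the SD between calves, and 0 of the 5 were called between days under every alternative, calf as a replicate block included, which changed no call. Of 1230 recomputed changes between days 78 had the other sign, in genes called in neither fit. With each calf left out in turn, the 5 genes called at d -14 became 3 to 5, the 3 at d 1 became 2 or 3 and the 2 at d 8 became 2 to 4. The lowest value came without J calf 57, where BTLA and TNFSF13B were lost, and the highest at d 8 without H-F calf 56, where TNFRSF13C and CXCR5 were gained. BTLA at d 1 was called in 16 of 27 alternatives and lost without the d 1 library of J calf 9, chosen after seeing the data. The B-cell markers called were less steady, at 7 to 12 for the 11 at d -14, 0 to 5 for the 3 at d 1 and 0 to 4 for the 1 at d 8 with a calf left out, and 0 at d 1 and d 8 without J calf 9. Without a fold-change threshold they were 9 at d 1 and 7 at d 8, with all 16 calves 5 and 3, 0 at d 1 without the d 1 library of J calf 9, and 2 at d 8 without the d 8 library of H-F calf 25. Over the whole table, the 520, 473 and 397 genes called between breeds became 2174, 2282 and 1589 without the fold-change threshold, 761 at d 1 with all 16 calves and 284 at d 1 without J calf 9. The 1 and 31 genes called at d 1 and d 8 in both breeds became 25 and 77 with the replicate block and 21 and 72 with limma-voom, and the 0 and 9 in H-F became 32 and 137 with the block, and the 0 and 0 in J 7 and 26. With limma-voom those of H-F were 18 and 135 and those of J were 4 and 21, and the remaining alternatives gave 1 to 7 and 16 to 70 for both breeds, 0 to 7 and 0 to 44 for H-F, and for J 0 and 0 to 8. TNFSF13B at d -14 was not called in the fit of only the groups compared, and TNFRSF13C at d 8 was called with DESeq2, with all 16 calves, and without H-F calf 56 or J calf 6. The cause of these moves was not tested. Genes near 1 CPM, here TNFSF13B, are the least precise at this depth.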
